A study of Homo sapiens with 10 samples.

Results

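The genes described here encode proteins of the splicing machinery in 4 families, the SNRP, LSM, SRSF and HNRNP genes. They were chosen by symbol alone, and pseudogenes with names of the same form (124 genes) were left out. This gave 62 of the 59386 genes counted, 12 SNRP, 13 LSM, 12 SRSF and 25 HNRNP genes. Their RNA was measured by RNA-seq in VCaP cells, a line from a prostate cancer metastasis, which took up siRNA with a lipid reagent and were harvested 72 h later. *SMARCA4*, the ATPase of SWI/SNF chromatin remodelers, was targeted with siRNA A or siRNA B, and *SMARCA1*, an ATPase of the ISWI family, with siRNA A or siRNA C, at 30 pmol each. The control libraries are wild type by their labels, and the siRNA or dose they received is not named. There were 2 libraries for each siRNA and 2 for the control, 10 in all. The data come from 1 cell line with a transient knockdown, and nothing says whether the 2 libraries of a condition came from separate cultures, so p-values measure only the spread between these libraries.

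Nuclear pre-mRNA is spliced by small nuclear ribonucleoproteins, in which a ring of Sm proteins is wrapped around the U1, U2, U4 and U5 RNAs and a ring of LSM proteins around U6 RNA. SR proteins, encoded by SRSF genes, mostly bind exons and favour their inclusion, and hnRNP proteins coat nascent RNA and often oppose it. Many SRSF and HNRNP genes also control their own RNA by splicing in exons that mark it for decay, and *MYC* is known to drive several splicing factor genes in tumour cells.

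Libraries held 23898545 to 34667965 counts, at which 3 counts, the limit that a count of 0 allows, equal 0.0865 to 0.126 CPM (counts scaled to library size), for counting error only. *SMARCA4* was at 7.87% of its control mean in its knockdown and *SMARCA1* at 8.78% in its own, and *SMARCA1* rose in *SMARCA4* knockdown, with a log2 fold change of 1.07 (edgeR adjusted p = 0.00100). *MYC* was at 318 and 328 CPM in the controls, between 25.8 and 102 CPM in *SMARCA4* knockdown and between 164 and 188 CPM in *SMARCA1* knockdown. All 33 interferon response genes tested were higher in both knockdowns, with a summed level of 427 and 435 CPM in the controls, 17675 to 47585 CPM in *SMARCA4* and 25617 to 49772 CPM in *SMARCA1* knockdown. The part of *MYC* or of the interferon response in any result on splicing factor genes was not tested. Over all genes tested, 22.3% were lower and 22.8% higher in *SMARCA4* knockdown, and 23.0% and 23.8% in *SMARCA1* knockdown (edgeR adjusted p below 0.05). Of 12 luminal prostate markers, 2 were lower and 5 higher in *SMARCA4* and 5 lower and 2 higher in *SMARCA1* knockdown, with sums of 11395 to 11468 CPM in the controls, 11291 to 12119 and 9933 to 11309 CPM. Of 10 markers of other cell types 7 could be tested, of which 1 was lower and 3 higher in *SMARCA4* and 2 lower and 4 higher in *SMARCA1* knockdown, with sums of 67.2 to 75.6 CPM in the controls, 108 to 217 and 120 to 200 CPM. Log2 fold changes of the 7 ran from -2.39 to 4.40 in *SMARCA4* and from -7.38 to 4.23 in *SMARCA1* knockdown. *PTPRC*, *CD3E* and *KRT5* had 1, 1 and 2 counts over all 10 libraries. The part of other cells in the results was not tested, and in bulk RNA fewer cells of a type and less RNA per cell cannot be told apart.

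Of the 62 genes, 57 passed the filter on low counts, and the other 5 (*HNRNPA1L2*, *HNRNPCL1*, *HNRNPCL2*, *HNRNPCL3* and *HNRNPCL4*) had 0 counts in every library. The 62 genes held 1.42% and 1.41% of all counts in the controls, 1.03% to 1.19% in *SMARCA4* knockdown and 1.18% to 1.35% in *SMARCA1* knockdown. Per kb of the deposited exon length, which sums all annotated exons of a gene, the highest control levels were those of *HNRNPA1* (199.9 CPM per kb), *HNRNPK* (174), *HNRNPF* (147), *SNRPD2* (139) and *SNRPB* (118). The lowest levels above 0 were those of *SRSF12* (0.768 CPM per kb), a factor best known from brain and testis, *LSM11* (0.969) and *LSM8* (1.98). *LSM8* was at 34.2 CPM before division by its summed exon length of 17309 bases, above *LSM5* at 32.6 CPM.

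The main comparison asked how the 4 families stood in each knockdown. In *SMARCA4* knockdown, 30 of the 57 genes tested fell and 2 rose (edgeR's quasi-likelihood test, adjusted p below 0.05), where 22.3% of all 16899 genes tested fell and 22.8% rose. The median log2 fold change of the 57 genes was -0.33, against 0.00 over all genes. In *SMARCA1* knockdown, 17 fell and 5 rose, where 23.0% of all genes fell and 23.8% rose, and the median was -0.11. Thus the falls made up 52.6% of the splicing factor genes tested in *SMARCA4* knockdown and 29.8% in *SMARCA1* knockdown. In 36 of the 57 genes all 4 *SMARCA4* libraries were below both controls and in 3 all were above, where 29.0% and 29.5% of all genes were. In *SMARCA1* knockdown these numbers were 22 and 8, where 29.1% of all genes were below and 29.1% above. Without control replicate 1 the falls numbered 18 and 5, without control replicate 2 *SMARCA1* falls numbered 10, and without *SMARCA1* siRNA C replicate 2 they also numbered 10.

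Beside the counts by family, 22.3% of all genes fell and 22.8% rose in *SMARCA4* knockdown, and 23.0% fell and 23.8% rose in *SMARCA1* knockdown. By family, 9 of 12 SNRP genes fell in *SMARCA4* knockdown (median log2 fold change -0.49) and 3 of 12 in *SMARCA1* knockdown (median -0.06). Their summed level had a control mean of 1031 ± 9.71 CPM (SD, n = 2). It was 702 ± 44.4 CPM (SD, n = 4), 68.1% of that mean, in *SMARCA4* knockdown, where all 4 libraries were below both controls. In *SMARCA1* knockdown it was 981 ± 142 CPM (SD, n = 4), or 95.2%, and the libraries lay on both sides of the controls. Of 20 HNRNP genes, 10 fell in *SMARCA4* knockdown (median -0.25), and 3 fell and 1 rose in *SMARCA1* knockdown (median -0.11). Of 12 SRSF genes, 5 fell and 1 rose in each knockdown, with medians of -0.26 and -0.24. Of 13 LSM genes, 6 fell and 1 rose in *SMARCA4* and 6 fell and 3 rose in *SMARCA1* knockdown, with medians of -0.05 and 0.06. In *SMARCA1* knockdown the falls of SNRP genes (25%) were near the share of all genes, and those of HNRNP genes (15%) were below it. Both knockdowns share the control libraries, so the values of the 2 comparisons are given side by side.

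**Figure D1:**
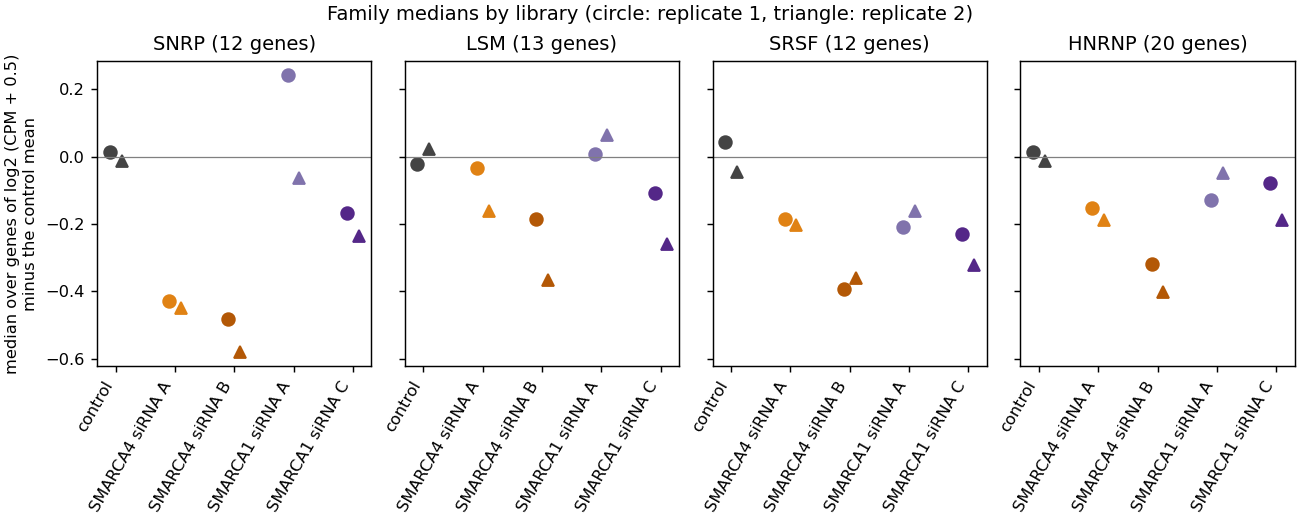
Median over the genes of each family of log2(CPM + 0.5) minus the control mean (vertical axis), 1 point per library, by condition (horizontal axis). SNRP medians lie between -0.58 and -0.43 in the *SMARCA4* libraries and between -0.23 and 0.24 in the *SMARCA1* libraries.

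*SNRPD3* (chr22:24555958-24582052, plus strand, GRCh38), the gene of Sm protein D3, had the largest fall of all genes of the 4 families in both knockdowns. It was at 78.4 and 77.3 CPM in the controls, at 25.2 and 32.8 CPM with *SMARCA4* siRNA A and at 19.1 and 19.9 CPM with *SMARCA4* siRNA B. *SMARCA1* siRNA A gave 27.6 and 31.8 CPM and siRNA C 21.9 and 21.1 CPM. Each of the 8 knockdown libraries was thus below both controls by more than the spread within any pair, and the knockdowns overlapped each other. The log2 fold change was -1.71 (standard error 0.11, edgeR adjusted p = 6.46e-06) in *SMARCA4* and -1.62 (standard error 0.11, edgeR adjusted p = 1.10e-05) in *SMARCA1* knockdown. Their direct difference did not pass the test, at -0.09 (standard error 0.10, edgeR adjusted p = 0.511). Of its exon bases, 14.0% also belong to an annotated gene on the same strand that had 0 to 4 counts in a library.

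Of the other 6 Sm ring genes, 5 fell in *SMARCA4* knockdown, and *SNRPE* alone of them was also called in *SMARCA1* knockdown. *SNRPE* was at 47.0 and 42.2 CPM in the controls, 25.7 and 26.3 (siRNA A) and 20.2 and 21.3 CPM (siRNA B) in *SMARCA4* knockdown and 40.3 and 36.3 (siRNA A) and 32.1 and 29.1 CPM (siRNA C) in *SMARCA1* knockdown. It was below both controls in all 8 knockdown libraries, and all 4 *SMARCA4* libraries were below all 4 *SMARCA1* libraries. *SNRPE* fell in both, at -0.94 (standard error 0.10, edgeR adjusted p = 6.53e-05) and -0.38 (standard error 0.10, edgeR adjusted p = 0.0103), and the latter call was lost without control replicate 1 and with siRNA A alone. *SNRPF* was at 49.2 and 43.6 CPM in the controls, 29.4 and 30.3 (siRNA A) and 24.5 and 22.4 CPM (siRNA B) in *SMARCA4* knockdown and 63.0 and 47.0 (siRNA A) and 43.5 and 38.4 CPM (siRNA C) in *SMARCA1* knockdown. Here the *SMARCA1* libraries lay on both sides of the controls. *SNRPF* fell in *SMARCA4* knockdown by 0.81 on the log2 scale, was at 0.03 (edgeR adjusted p = 0.854) in *SMARCA1* knockdown, and had the largest direct difference of the SNRP family at -0.84 (standard error 0.11, edgeR adjusted p = 4.03e-04).

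*SNRPD1* was at 73.7 and 72.2 CPM in the controls, 46.9 and 46.6 (siRNA A) and 41.2 and 33.6 CPM (siRNA B) in *SMARCA4* knockdown and 72.6 and 67.1 (siRNA A) and 64.0 and 59.9 CPM (siRNA C) in *SMARCA1* knockdown. *SNRPD1* fell in the former, at -0.80 (edgeR adjusted p = 1.86e-04), and was at -0.15 (edgeR adjusted p = 0.253) in the latter. *SNRPD2* had a control mean of 200.5 ± 11.5 CPM (SD, n = 2) and fell in *SMARCA4* knockdown (-0.71, edgeR adjusted p = 5.39e-04) to 123 ± 13.7 CPM (SD, n = 4). Its mean in *SMARCA1* knockdown was 189 ± 40.3 CPM (SD, n = 4), on both sides of the controls. *SNRPG* was lower in *SMARCA4* knockdown at -0.37 (edgeR adjusted p = 0.0141), with 57.0 and 56.5 CPM in the controls and 42.1 to 47.1 CPM in the 4 libraries. In *SMARCA1* knockdown its 4 libraries, at 58.9 to 77.3 CPM, were all above the controls, with a log2 fold change of 0.21 (edgeR adjusted p = 0.123) that did not pass the test. The *SNRPG* call in *SMARCA4* knockdown was lost with siRNA A alone, with either control library left out and with any of 3 of the 4 *SMARCA4* libraries left out. *SNRPB*, which encodes the B and B′ proteins, was the Sm ring gene not called in *SMARCA4* knockdown (-0.26, edgeR adjusted p = 0.155), although all 4 libraries were below the controls. It was called there with either *SMARCA1* siRNA A library left out and with the *SMARCA4* and control libraries alone. Over the ring, 6 of 7 genes fell in *SMARCA4* knockdown (median log2 fold change -0.80), where 22.3% of all genes did. In *SMARCA1* knockdown 2 of 7 fell (28.6%, median -0.10), near the 23.0% of all genes. When both were compared directly, 6 of 7 were lower in *SMARCA4* knockdown (median -0.58), where 19.1% of all genes were.

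Of the genes for proteins particular to U1 (*SNRPA* and *SNRPC*) and U2 (*SNRPA1* and *SNRPB2*), 3 of 4 fell in *SMARCA4* knockdown, where 22.3% of all genes did. None of the 4 was called in *SMARCA1* knockdown (edgeR, 0 of 4 also at an unadjusted p below 0.05), where 23.0% of all genes fell and 23.8% rose. *SNRPA1* had the largest change of these, at 128 and 132 CPM in the controls, 93.4 and 84.8 (siRNA A) and 95.6 and 86.8 CPM (siRNA B) in *SMARCA4* knockdown and 168 and 145 (siRNA A) and 141 and 129.8 CPM (siRNA C) in *SMARCA1* knockdown. Its log2 fold changes were -0.53 (edgeR adjusted p = 0.00183) in *SMARCA4* and 0.16 (edgeR adjusted p = 0.223) in *SMARCA1* knockdown. The *SNRPB2* call in *SMARCA4* knockdown was lost with siRNA A alone (-0.23, edgeR adjusted p = 0.158). *SNRPC* was not called in either knockdown (-0.16 and 0.07).

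*SNRPN*, a paralog of *SNRPB* that is expressed from the paternal allele, had another pattern. It was at 46.3 and 40.2 CPM in the controls, 36.0 and 37.0 (siRNA A) and 41.5 and 37.4 CPM (siRNA B) in *SMARCA4* knockdown and 34.5 and 29.4 (siRNA A) and 27.8 and 30.8 CPM (siRNA C) in *SMARCA1* knockdown. Its fall passed the test in *SMARCA1* knockdown, at -0.50 (standard error 0.11, edgeR adjusted p = 0.00459), and not in *SMARCA4* knockdown, at -0.19 (standard error 0.11, edgeR adjusted p = 0.196). The call was lost without control replicate 1. It was the SNRP gene called higher in the direct comparison of *SMARCA4* with *SMARCA1* knockdown, at 0.31 (edgeR adjusted p = 0.0242). That direct call was lost with either siRNA C library of *SMARCA1* left out, and without *SMARCA4* siRNA A replicate 2 or siRNA B replicate 1. *SNRPN* shares 43.9% of its exon bases with other genes on the same strand, among them *SNURF* and *SNHG14*. *SNHG14* went from 1238 and 1202 CPM in the controls to 159 to 423 CPM in *SMARCA4* and 122 to 256 CPM in *SMARCA1* knockdown. How reads in shared bases were assigned is not stated, and the part of *SNHG14* in the *SNRPN* values was not tested.

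The *SMARCA1* libraries differed among themselves. Replicate 1 of siRNA A was the highest of the 4 *SMARCA1* libraries for 11 of 12 SNRP genes, 9 of 13 LSM, 8 of 20 HNRNP and 2 of 12 SRSF genes. Its summed SNRP level was 1187 CPM, above both controls (1024 and 1038 CPM), while the other 3 *SMARCA1* libraries had 869 to 959 CPM. Without it, the SNRP median log2 fold change was -0.14 in *SMARCA1* knockdown and -0.40 in *SMARCA4* against *SMARCA1* knockdown. The share of all genes highest in this library was not counted. Over all genes, the libraries of *SMARCA1* siRNA A differed from each other more than those of any other condition. Their chi-square per gene was 54.5, against 3.57 for *SMARCA1* siRNA C.

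**Figure D2:**
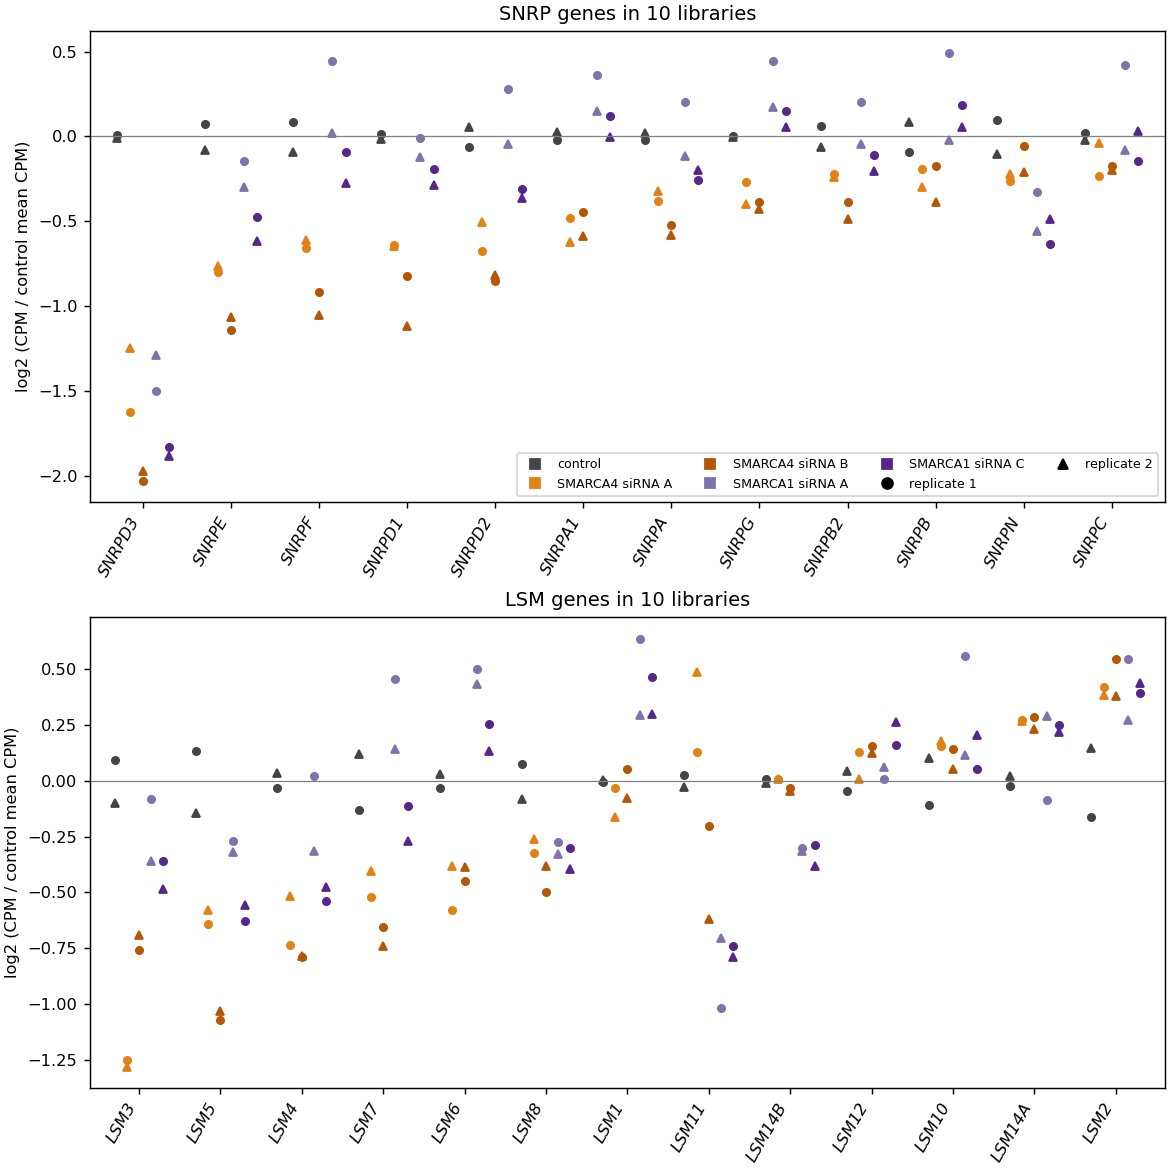
Level of each SNRP gene (top) and LSM gene (bottom) in each library, as log2 of its CPM over the control mean CPM (vertical axis), with genes ordered by their log2 fold change in *SMARCA4* knockdown. Points are single libraries, coloured by condition, and *SNRPD3* is the gene farthest below 0 in all 8 knockdown libraries.

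In the ring that binds U6 RNA, formed by *LSM2* to *LSM8*, 6 of 7 genes fell and 1 rose in *SMARCA4* knockdown, where 22.3% of all genes fell and 22.8% rose. In *SMARCA1* knockdown 4 of the 7 fell and 2 rose, where 23.0% of all genes fell and 23.8% rose. *LSM3* was at 124 and 109 CPM in the controls, 48.9 and 47.9 CPM with *SMARCA4* siRNA A and 68.7 and 72.1 CPM with siRNA B. In *SMARCA1* knockdown it was at 110.0 and 90.7 CPM (siRNA A) and 90.7 and 83.1 CPM (siRNA C), where siRNA A replicate 1 overlapped the controls. *LSM3* fell in both, at -0.99 (standard error 0.10, edgeR adjusted p = 6.76e-05) and -0.32 (standard error 0.11, edgeR adjusted p = 0.0325). *LSM5* was at 35.7 and 29.4 CPM in the controls, 20.8 and 21.8 (siRNA A) and 15.5 and 16.0 CPM (siRNA B) in *SMARCA4* knockdown and 27.0 and 26.1 (siRNA A) and 21.1 and 22.1 CPM (siRNA C) in *SMARCA1* knockdown, below both controls in all 8. The log2 fold changes were -0.83 (edgeR adjusted p = 1.89e-04) and -0.44 (edgeR adjusted p = 0.00670), and the *SMARCA1* call was lost with siRNA A alone and without control replicate 1.

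*LSM4* fell in both knockdowns, by log2 fold changes of -0.70 (edgeR adjusted p = 6.46e-04) and -0.32 (edgeR adjusted p = 0.0363), as did *LSM8*, at -0.37 (edgeR adjusted p = 0.0117) and -0.32 (edgeR adjusted p = 0.0200). *LSM8* is the subunit that sets the nuclear ring apart from the cytoplasmic one. The *SMARCA1* calls of *LSM3*, *LSM4* and *LSM8* were lost with siRNA A alone, with either control library left out and with either siRNA C library left out. The *SMARCA4* call of *LSM8* was lost with siRNA A alone, without a filter and with any of 3 single libraries left out. *LSM7* fell in *SMARCA4* knockdown, at -0.58 (edgeR adjusted p = 0.00324), and was at 0.06 (edgeR adjusted p = 0.722) in *SMARCA1* knockdown, with a direct difference of -0.64 (edgeR adjusted p = 0.00118). The *LSM7* fall was lost without control replicate 2.

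*LSM6* was at 11.4 and 11.9 CPM in the controls, 7.79 and 8.93 (siRNA A) and 8.53 and 8.91 CPM (siRNA B) in *SMARCA4* knockdown and 16.5 and 15.7 (siRNA A) and 13.9 and 12.7 CPM (siRNA C) in *SMARCA1* knockdown. All 4 *SMARCA4* libraries were below the controls and all 4 *SMARCA1* libraries above them. It was called lower in *SMARCA4* knockdown (-0.45, edgeR adjusted p = 0.00965) and higher in *SMARCA1* knockdown (0.33, edgeR adjusted p = 0.0382). It was the only one of the 57 genes called in opposite directions, where 0.249% of all genes were lower in *SMARCA4* and higher in *SMARCA1* knockdown. The *SMARCA1* call was lost with DESeq2, with upper quartile scaling, with total counts only, without a filter, with siRNA C alone and with either siRNA C library or either control library left out. The *SMARCA4* call was lost with either control library left out and without *SMARCA4* siRNA B replicate 1. The direct difference was -0.78 (edgeR adjusted p = 3.02e-04), and no alternative that tested it lost that call. *LSM2* was at 10.7 and 13.3 CPM in the controls and between 14.5 and 17.5 CPM in all 8 knockdown libraries, above both controls, with log2 fold changes of 0.43 (edgeR adjusted p = 0.0229) and 0.41 (edgeR adjusted p = 0.0272). Both *LSM2* calls were lost with siRNA A alone and without control replicate 1, and the *SMARCA1* call also with either siRNA C library left out.

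*LSM1* takes the place of *LSM8* in the cytoplasmic ring that promotes decapping of mRNA. It was at 47.0 and 47.3 CPM in the controls, between 42.1 and 48.9 CPM in *SMARCA4* knockdown and at 73.3 and 57.8 (siRNA A) and 65.1 and 58.0 CPM (siRNA C) in *SMARCA1* knockdown. Only the *SMARCA1* libraries were all above the controls. *LSM1* rose in *SMARCA1* knockdown, at 0.43 (standard error 0.12, edgeR adjusted p = 0.0137), and was at -0.05 (edgeR adjusted p = 0.731) in *SMARCA4* knockdown. The rise was lost with either control library left out and without *SMARCA1* siRNA C replicate 1. Of its exon bases, 37.9% lie opposite exons of other genes, *BAG4* among them.

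*LSM10* and *LSM11* replace Sm D1 and D2 in the U7 particle that processes histone mRNA. *LSM11* was at 6.48 and 6.24 CPM in the controls, 6.95 and 8.93 CPM with *SMARCA4* siRNA A, 5.53 and 4.14 CPM with siRNA B, and 3.15 and 3.90 (siRNA A) and 3.81 and 3.69 CPM (siRNA C) in *SMARCA1* knockdown. The *SMARCA1* libraries were all below the controls, and the *SMARCA4* libraries lay on both sides of them, higher with siRNA A than with siRNA B. *LSM11* fell in *SMARCA1* knockdown, at -0.81 (standard error 0.17, edgeR adjusted p = 0.00409), the largest fall after *SNRPD3* there, and was at -0.04 (edgeR adjusted p = 0.886) in *SMARCA4* knockdown, with a direct difference of 0.77 (edgeR adjusted p = 0.00300). *LSM10* was not called in either (0.13 and 0.24). *LSM14B*, whose product binds stored mRNA, fell in *SMARCA1* knockdown (-0.32, edgeR adjusted p = 0.00948) and was at -0.02 (edgeR adjusted p = 0.893) in *SMARCA4* knockdown, with a direct difference of 0.31 (edgeR adjusted p = 0.00694). The fall was lost without a filter, with either control library left out and without *SMARCA1* siRNA C replicate 2.

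Among the SR proteins in the strict sense (*SRSF1* to *SRSF7* and *SRSF9*), 5 of 8 fell and 1 rose in *SMARCA4* knockdown, where 22.3% of all genes fell and 22.8% rose. In *SMARCA1* knockdown 4 of the 8 fell and 1 rose, where 23.0% of all genes fell and 23.8% rose. *SRSF1* (chr17:58000919-58007346, minus strand, GRCh38), the founding SR protein gene and a known oncogene when in excess, was at 119 and 93.0 CPM in the controls. It was at 63.0 and 64.7 (siRNA A) and 53.4 and 53.8 CPM (siRNA B) in *SMARCA4* knockdown and at 68.9 and 76.2 (siRNA A) and 68.5 and 66.2 CPM (siRNA C) in *SMARCA1* knockdown. All 8 knockdown libraries were below both controls, which differed from each other by more than any knockdown pair. The log2 fold changes were -0.86 (standard error 0.11, edgeR adjusted p = 1.86e-04) and -0.60 (standard error 0.11, edgeR adjusted p = 0.00154), and the direct difference, -0.26 (edgeR adjusted p = 0.0507), did not pass the test. Of its exon bases 32.7% are shared with a gene on the same strand that had 0 counts in every library.

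*SRSF6* was at 191 and 179 CPM in the controls, 99.96 to 152 CPM in the 4 *SMARCA4* libraries and 111 to 131 CPM in the 4 *SMARCA1* libraries. It was below the controls in all 8, and the 2 knockdowns overlapped. *SRSF6* fell in both, at -0.56 (edgeR adjusted p = 0.00179) and -0.66 (edgeR adjusted p = 7.90e-04), and the *SMARCA4* call was lost with siRNA A alone (-0.35, edgeR adjusted p = 0.0510). *SRSF2*, which binds exonic enhancers and is mutated in myeloid neoplasms, was at 237 and 226 CPM in the controls and between 170.2 and 189 CPM in the 8 knockdown libraries. Its log2 fold changes were -0.37 (edgeR adjusted p = 0.00563) and -0.34 (edgeR adjusted p = 0.00903), and the direct difference was -0.03. The *SMARCA1* call of *SRSF2* was lost with either control library left out.

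*SRSF7* fell in both (-0.61, edgeR adjusted p = 3.76e-04, and -0.33, edgeR adjusted p = 0.0119), with the *SMARCA1* call lost with siRNA A alone, and had a direct difference of -0.28 (edgeR adjusted p = 0.0131), a call lost without *SMARCA1* siRNA C replicate 1 and with either *SMARCA4* siRNA B library left out. *SRSF3*, the smallest SR protein and an exporter of mRNA together with *SRSF7*, fell in *SMARCA4* knockdown, at -0.49 (edgeR adjusted p = 0.00278), a call lost without control replicate 1, and was at -0.23 (edgeR adjusted p = 0.0855) in *SMARCA1* knockdown. *SRSF4* was the SRSF gene that rose, from 75.2 and 79.0 CPM in the controls to 87.8 to 103 CPM in all 8 knockdown libraries, with log2 fold changes of 0.26 (edgeR adjusted p = 0.0410) and 0.30 (edgeR adjusted p = 0.0204). The *SMARCA4* call of *SRSF4* was lost with each siRNA alone and the *SMARCA1* call with siRNA A alone, and neither was made without control replicate 1, nor the *SMARCA1* call without *SMARCA1* siRNA C replicate 1. *SRSF5* and *SRSF9* were not called in either knockdown, while *SRSF9* had a direct difference of -0.34 (edgeR adjusted p = 0.0111), a call lost without *SMARCA1* siRNA C replicate 1 and without *SMARCA4* siRNA B replicate 2. *SRSF9* has 46.7% of its exon bases opposite *GATC*, and *SRSF2* has 35.8% opposite *MFSD11*.

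Of the other SRSF genes, *SRSF8* fell in *SMARCA1* knockdown (-0.45, edgeR adjusted p = 0.00672), with 146 and 140.3 CPM in the controls and 92.9 to 127 CPM in the 4 libraries, all below the controls. With siRNA A alone it was not called (-0.29, edgeR adjusted p = 0.0982). *SRSF10* and *SRSF11* were not called in any of the 3 comparisons. *SRSF12*, at 3.49 CPM in the controls, was called higher in the direct comparison (0.45, edgeR adjusted p = 0.0460), a call lost with DESeq2, with upper quartile scaling and with any of 7 single libraries left out.

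The A and B group of HNRNP genes includes *HNRNPA1* and *HNRNPA2B1*, whose products are among the core proteins of hnRNP particles. Of 5 genes of the group tested, 4 fell in *SMARCA4* knockdown (median log2 fold change -0.75), where 22.3% of all genes did. In *SMARCA1* knockdown 2 fell (median -0.19), where 23.0% of all genes did. By direct comparison 4 were lower (median -0.30), where 19.1% of all genes were. *HNRNPAB* (chr5:178204533-178211163, plus strand, GRCh38), the gene of hnRNP A/B, was at 231 and 233 CPM in the controls and at 140.1 and 131 (siRNA A) and 132 and 114 CPM (siRNA B) in *SMARCA4* knockdown. In *SMARCA1* knockdown it was at 256 and 222 CPM (siRNA A) and 223 and 217 CPM (siRNA C). The *SMARCA4* libraries were all below the rest, and *SMARCA1* siRNA A replicate 1 was the highest of all 10. The log2 fold change was -0.84 (standard error 0.10, edgeR adjusted p = 1.17e-04) in *SMARCA4* and -0.02 (standard error 0.10, edgeR adjusted p = 0.908) in *SMARCA1* knockdown, with a direct difference of -0.83 (standard error 0.08, edgeR adjusted p = 1.40e-04).

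*HNRNPA1* (chr12:54280193-54287088, plus strand, GRCh38), whose product represses many exons and also has cytoplasmic roles, was at 1321 and 1357 CPM in the controls. It was at 899 and 920.2 (siRNA A) and 742 and 644 CPM (siRNA B) in *SMARCA4* knockdown and at 1019.8 and 979.7 (siRNA A) and 908 and 854 CPM (siRNA C) in *SMARCA1* knockdown. All 8 knockdown libraries were below both controls, and siRNA A of *SMARCA4* overlapped the *SMARCA1* libraries. *HNRNPA1* fell in both, at -0.75 (standard error 0.09, edgeR adjusted p = 1.42e-04) and -0.51 (standard error 0.09, edgeR adjusted p = 0.00141), with a direct difference of -0.24 (edgeR adjusted p = 0.0318). It has many near-identical pseudogenes, whose counts were 4.72% to 6.05% of the counts of gene and pseudogenes together, so part of its reads may have been counted elsewhere.

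*HNRNPA3* was at 491 and 469 CPM in the controls, 284 and 291 (siRNA A) and 269 and 263 CPM (siRNA B) in *SMARCA4* knockdown and 368 and 463 (siRNA A) and 369 and 320.4 CPM (siRNA C) in *SMARCA1* knockdown. Its log2 fold changes were -0.79 (edgeR adjusted p = 2.90e-04) and -0.34 (edgeR adjusted p = 0.0262), and all 4 *SMARCA4* libraries were below all 4 *SMARCA1* libraries. The *SMARCA1* call was lost with siRNA A alone (-0.21, edgeR adjusted p = 0.230). *HNRNPA2B1*, a partner of hnRNP A1 in the core particle, had a control mean of 1475 ± 40.2 CPM (SD, n = 2). It fell in *SMARCA4* knockdown (-0.50, edgeR adjusted p = 0.00134) to 1050.4 ± 108 CPM (SD, n = 4) and was at -0.19 (edgeR adjusted p = 0.0954) in *SMARCA1* knockdown. *HNRNPA0*, the fifth, was not called (-0.22 and -0.07).

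Both genes of the D group, whose products bind AU-rich elements, fell in *SMARCA4* knockdown, *HNRNPD* at -0.36 (edgeR adjusted p = 0.00978) and *HNRNPDL* at -0.46 (edgeR adjusted p = 0.00153). *HNRNPD* was at -0.19 (edgeR adjusted p = 0.202) with siRNA A alone, which is not a call, and at -0.53 with siRNA B alone. Neither passed the test in *SMARCA1* knockdown (-0.02 and -0.22). In the F and H group, which binds runs of G, *HNRNPH1* fell in both (-0.38, edgeR adjusted p = 0.00825, and -0.27, edgeR adjusted p = 0.0363) and *HNRNPH3* in *SMARCA4* knockdown (-0.33, edgeR adjusted p = 0.0174). With *SMARCA4* siRNA A alone neither was called (-0.30, edgeR adjusted p = 0.0628, and -0.19, edgeR adjusted p = 0.208), and with *SMARCA1* siRNA C alone *HNRNPH1* was not called (-0.23, edgeR adjusted p = 0.113). *HNRNPF* and *HNRNPH2* were not called in any of the 3 comparisons. *HNRNPK*, which binds runs of C, and *HNRNPUL2* also fell in *SMARCA4* knockdown (-0.27, edgeR adjusted p = 0.0313, and -0.36, edgeR adjusted p = 0.0125), and the *HNRNPK* call was lost with siRNA A alone (-0.23, edgeR adjusted p = 0.116). *HNRNPU*, whose product binds chromatin as well as RNA, was not called in either knockdown and had a direct difference of -0.24 (edgeR adjusted p = 0.0354).

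*HNRNPM*, a factor tied to splicing of epithelial and mesenchymal isoforms, was the HNRNP gene that rose. It was at 423 and 427 CPM in the controls, 436 and 418 (siRNA A) and 422 and 367 CPM (siRNA B) in *SMARCA4* knockdown and 558 and 514 (siRNA A) and 542 and 512 CPM (siRNA C) in *SMARCA1* knockdown. Only *SMARCA1* libraries were above 500 CPM, and *SMARCA4* siRNA A lay about the controls. The log2 fold change was 0.32 (standard error 0.10, edgeR adjusted p = 0.0192) in *SMARCA1* and -0.05 (standard error 0.09, edgeR adjusted p = 0.680) in *SMARCA4* knockdown, with a direct difference of -0.37 (edgeR adjusted p = 0.00481). The rise was lost with either control library left out and without *SMARCA1* siRNA C replicate 1. *HNRNPC*, *HNRNPL*, *HNRNPLL*, *HNRNPR* and *HNRNPUL1* were not called in any of the 3 comparisons, at log2 fold changes between -0.18 and -0.02 in *SMARCA4* knockdown.

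**Figure D3:**
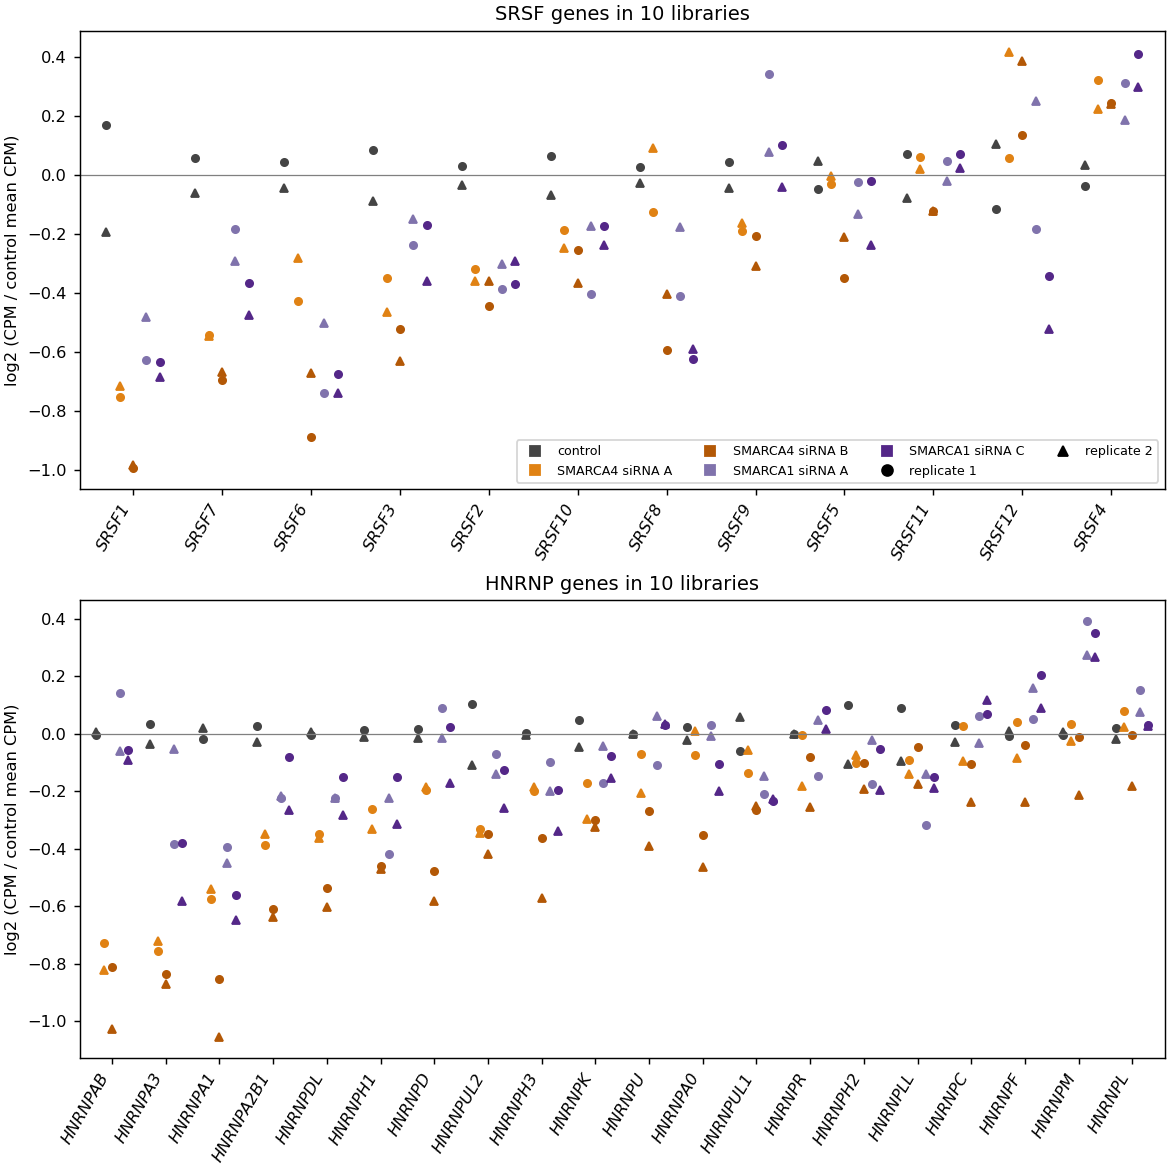
Level of each SRSF gene (top) and each of the 20 HNRNP genes tested (bottom) in each library, as log2 of its CPM over the control mean CPM (vertical axis), with genes ordered by their log2 fold change in *SMARCA4* knockdown. *SRSF1* and *HNRNPA1* lie below the controls in all 8 knockdown libraries and *SRSF4* above them.

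Promoter sequence was examined because *MYC*, which binds the E-box CACGTG, differed between the conditions. RefSeq promoters (GRCh38.p14, 250 bases before to 50 after the start site) were at hand for 55 of the 62 genes. CACGTG, which reads the same on both strands, occurred in 7 of the 55 promoters (12.7%), against 2030 of 27305 promoters (7.43%), which were not limited to genes tested here. All 7 were HNRNP promoters (7 of 23, 30.4%), namely those of *HNRNPA3*, *HNRNPD*, *HNRNPDL*, *HNRNPH2*, *HNRNPH3*, *HNRNPM* and *HNRNPUL1*, the last after the start site. Stretches of 30 bases around the first motif upstream of the RefSeq start site are shown 5′ to 3′ with CACGTG in capitals, and that just before the *SNRPD3* start, which lacks it, is shown because that gene changed most.
*HNRNPA3*: cggaaaacgcgtCACGTGacgactggcccc
*HNRNPD*: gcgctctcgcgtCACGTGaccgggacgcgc
*HNRNPDL*: agaggcccggggCACGTGcagaaaggagcc
*HNRNPH2*: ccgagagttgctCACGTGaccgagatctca
*HNRNPH3*: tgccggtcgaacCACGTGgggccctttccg
*HNRNPM*: gttgcgtcgggtCACGTGggcgcgcaggcg
*SNRPD3*: ggtgccgggatcaacaaatgaaattgtgac
These stretches are chr2:177212730-177212759 (plus strand), chr4:82374263-82374292 (minus strand), chr4:82430351-82430380 (minus strand), chrX:101408418-101408447 (plus strand), chr10:68331362-68331391 (plus strand), chr19:8444963-8444992 (plus strand) and chr22:24556178-24556207 (plus strand), in the order shown. *HNRNPH2* holds a second CACGTG nearer to its start. Some of these bases fall in exons of longer annotated transcripts that start upstream.

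Of the 7 genes with the motif, 4 fell in *SMARCA4* knockdown (*HNRNPA3*, *HNRNPD*, *HNRNPDL* and *HNRNPH3*), with a median log2 fold change of -0.33 over the 7, and the other 3 had values of -0.12, -0.05 and -0.18. Of the 12 tested HNRNP genes with a promoter that lacks it, 5 fell, with a median of -0.23. The promoters of the other families all lack it, and 8 of 11 SNRP, 5 of 10 LSM and 4 of 11 SRSF genes fell (medians -0.45, -0.20 and -0.25). Over all families, 22 of 44 tested genes without it fell, with a median of -0.27. The ETS motif CCGGAAGT, searched on both strands, was in 7 of the 55 promoters (12.7%) against 4.44% of all promoters. The interferon-stimulated response element, searched on both strands as GAAA repeated after a gap of 2 bases, was in 4 of the 55 (7.27%) against 3.65% of all promoters. These shares of all promoters also include genes that were not tested here. A match is a description of these letters and not evidence of binding.

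The direct comparison asked where the 2 knockdowns differed. Of the 57 genes, 26 were lower and 4 higher with knockdown of *SMARCA4* than of *SMARCA1*, where 19.1% of all genes were lower and 16.3% higher, and the median log2 difference was -0.21. By family, 9 of 12 SNRP genes were lower (median -0.51), 6 of 13 LSM genes (median -0.11), 3 of 12 SRSF genes (median -0.05) and 8 of 20 HNRNP genes (median -0.18). The 4 higher genes were *SNRPN*, *LSM11*, *LSM14B* and *SRSF12*. In 25 of the 57 genes all 4 *SMARCA4* libraries were below all 4 *SMARCA1* libraries, where 13.8% of all genes were. Without *SMARCA1* siRNA C replicate 1 the lower genes numbered 16.

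**Figure D4:**
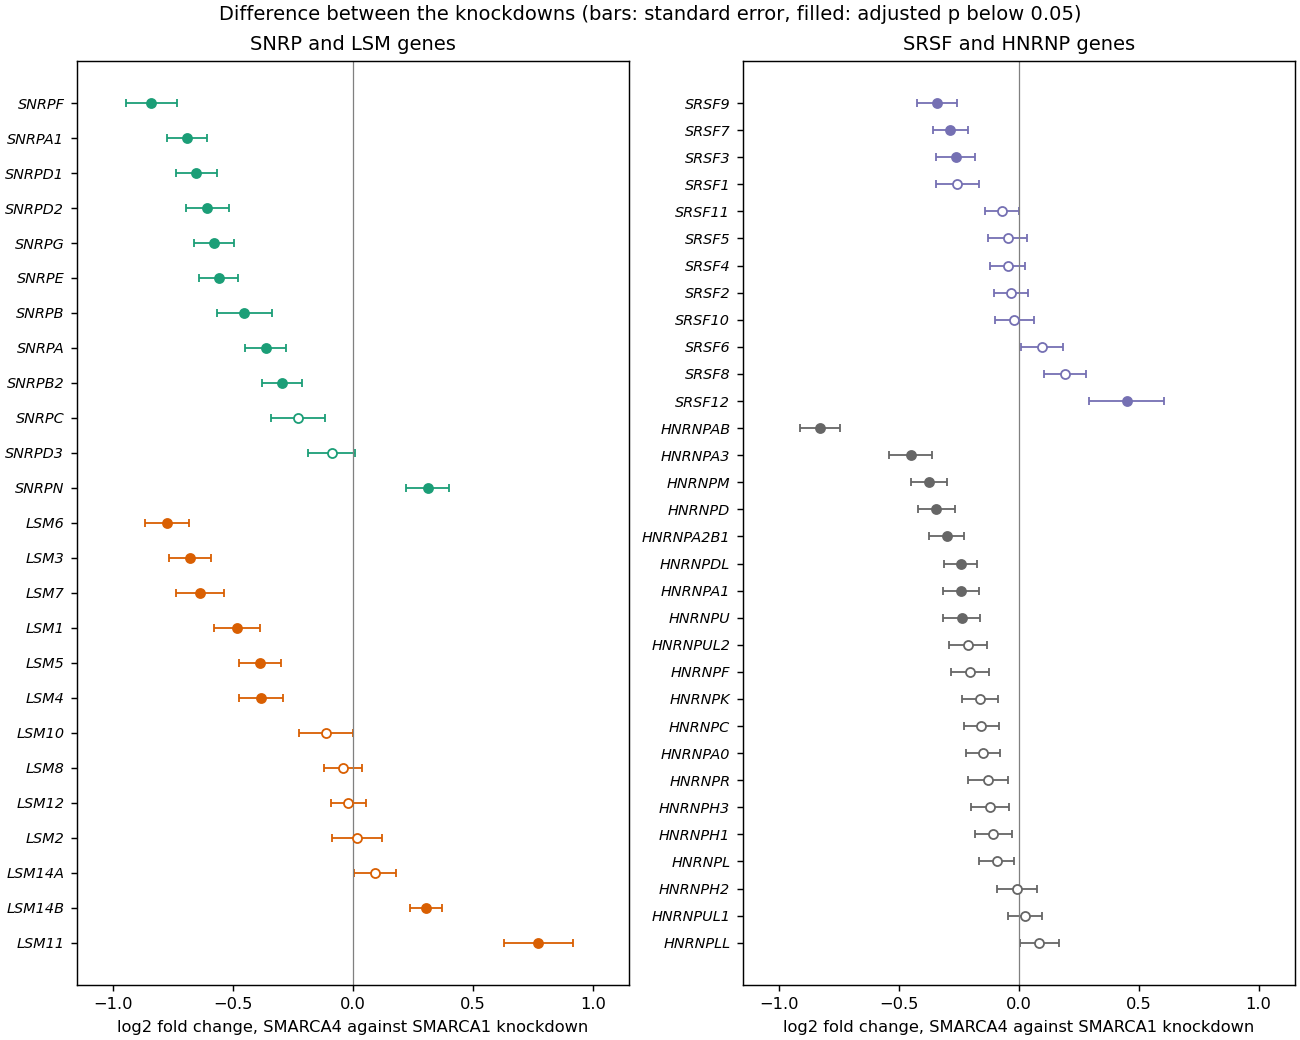
Log2 fold change of *SMARCA4* against *SMARCA1* knockdown (horizontal axis) for each gene tested, by family, with standard error bars and filled points for an edgeR adjusted p below 0.05. *SNRPF*, *HNRNPAB* and *LSM6* lie farthest to the left, at -0.84, -0.83 and -0.78, and *LSM11* farthest to the right at 0.77.

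Across both comparisons with the shared controls, 13 genes fell in both knockdowns, 16 fell in *SMARCA4* knockdown and were not called in *SMARCA1* knockdown, and 4 fell in *SMARCA1* knockdown and were not called in *SMARCA4* knockdown. Over all genes, 22.3% fell in *SMARCA4* knockdown, 23.0% in *SMARCA1* knockdown and 13.7% in both. The 13 were *SNRPD3*, *SNRPE*, *LSM3*, *LSM4*, *LSM5*, *LSM8*, *SRSF1*, *SRSF2*, *SRSF6*, *SRSF7*, *HNRNPA1*, *HNRNPA3* and *HNRNPH1*. *LSM2* and *SRSF4* rose in both, where 16.2% of all genes did. Another 19 genes were called in neither knockdown.

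The 2 siRNAs of a target were compared as a check on each knockdown. Of the 30 genes that fell in *SMARCA4* knockdown, 22 also fell with each siRNA alone, and of the 17 that fell in *SMARCA1* knockdown, 8 did. How many of all genes met this joint rule was not counted. *SMARCA4* siRNA B gave 34 falls and siRNA A 22 among the 57 genes. Over all genes, 21.9% fell with siRNA B and 15.8% with siRNA A. The median log2 difference, siRNA B minus siRNA A, was -0.14 over the 57 genes and -0.01 over all genes. By the test, 3 genes differed between these siRNAs, where 6.20% of all genes did. *SNRPD3* and *SRSF8* were lower and *LSM3* was higher with siRNA B, and there were 0 such calls with any of 7 single libraries left out. *SMARCA4* RNA itself stood at 25.2 and 23.2 CPM for siRNA A against 18.6 and 13.3 CPM for siRNA B, and *MYC* at 87.4 and 102 CPM against 42.2 and 25.8 CPM, with a log2 difference of -1.48 (edgeR adjusted p = 0.00551). The summed interferon level was 35805.9 and 17675 CPM for siRNA A and 47585 and 40057 CPM for siRNA B. Their part in these differences was not tested. For *SMARCA1*, siRNA C gave 16 falls and siRNA A 9, where 21.5% and 16.3% of all genes fell, and 0 of the 57 genes were called between them by edgeR, where 0.0118% of all genes were. At an unadjusted p below 0.05 by edgeR there were 9 of the 57, beside 2898 of all 16899 genes, and DESeq2 also called 0 of the 57. Without *SMARCA1* siRNA A replicate 2, 9 were called.

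Genes that work with the 4 families were read from lists of known partners, beside the 22.3% of all genes that fell and 22.8% that rose in *SMARCA4* knockdown, and the 23.0% and 23.8% in *SMARCA1* knockdown. Of 18 genes for assembly of Sm rings onto RNA, 8 fell in *SMARCA4* knockdown (44.4%), 4 fell (22.2%, near the share of all genes) and 1 rose in *SMARCA1* knockdown, and 10 were lower by direct comparison (55.6%, against 19.1% of all genes). *CLNS1A*, the chaperone that holds Sm proteins before loading, fell at -0.93 (edgeR adjusted p = 5.73e-05) and -0.39 (edgeR adjusted p = 0.00791). Its *SMARCA1* call was lost with at least 1 of the siRNAs alone. *GEMIN6* of the SMN complex was at -0.79 (edgeR adjusted p = 6.53e-04) and -0.30 (edgeR adjusted p = 0.0686), and *STRAP*, which binds that complex, at -0.71 (edgeR adjusted p = 1.76e-04) and -0.34 (edgeR adjusted p = 0.0112). Median log2 fold changes of the list were -0.35 and -0.05.

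Of 58 other spliceosome genes, 16 fell (27.6%) and 5 rose (8.62%) in *SMARCA4* knockdown (median log2 fold change -0.11), and 7 fell (12.1%) and 15 rose (25.9%) in *SMARCA1* knockdown (median 0.10). The falls in the former and the rises in the latter were near the shares of all genes. By direct comparison 24 were lower (41.4%, against 19.1% of all genes) and 1 was higher. *TXNL4A* and *PPIH* of the tri-snRNP fell in *SMARCA4* knockdown (-0.93, edgeR adjusted p = 1.01e-04, and -0.63, edgeR adjusted p = 0.00154), and the U5 helicase gene *SNRNP200* fell in *SMARCA1* knockdown (-0.53, edgeR adjusted p = 0.00847). Of the genes for proteins of the minor spliceosome, *SNRNP35* rose in *SMARCA4* knockdown (0.52, edgeR adjusted p = 0.00507) and *SNRNP48* fell in *SMARCA1* knockdown (-0.87, edgeR adjusted p = 0.00269). *SF3B4* rose in *SMARCA4* (0.41, edgeR adjusted p = 0.00746), and *XAB2* and *ISY1* rose in *SMARCA1* knockdown (0.78, edgeR adjusted p = 0.00313, and 0.65, edgeR adjusted p = 0.00878).

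Of 17 genes that modify or assist SR proteins, 2 fell (11.8%) and 4 rose (23.5%) in *SMARCA4* and 3 fell and 3 rose (17.6% each) in *SMARCA1* knockdown, near or below the shares of all genes. *SRPK1*, the kinase that sends SR proteins to the nucleus, fell in both (-0.69, edgeR adjusted p = 9.68e-04, and -0.53, edgeR adjusted p = 0.00448), and *TRA2B*, an SR-like factor, fell in *SMARCA4* knockdown (-0.42, edgeR adjusted p = 0.00366). The kinase gene *CLK1* fell in *SMARCA1* knockdown (-0.41, edgeR adjusted p = 0.00647). *ACIN1* rose in both (0.54, edgeR adjusted p = 0.00103, and 0.47, edgeR adjusted p = 0.00218), as did *SCAF1* (0.45, edgeR adjusted p = 0.00859, and 0.50, edgeR adjusted p = 0.00503).

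Of 11 decapping and mRNA decay genes that act with the *LSM1* ring, 3 fell and 3 rose (27.3% each) in *SMARCA4* and 4 fell and 4 rose (36.4% each) in *SMARCA1* knockdown. *DCP2*, the decapping enzyme, was at -1.92 (edgeR adjusted p = 2.29e-04) and its helicase partner *DDX6* at -0.65 (edgeR adjusted p = 0.00819) in *SMARCA1* knockdown. *DCP2* was also the lowest of the 11 genes in *SMARCA4* knockdown, at -1.32, where siRNA A alone called 0 of them lower. The activator *DCP1A* rose in both knockdowns (0.86, edgeR adjusted p = 2.25e-04, and 1.19, edgeR adjusted p = 6.14e-05). Of 30 other splicing regulators, 9 fell (30.0%) and 5 rose (16.7%) in *SMARCA4* and 7 fell (23.3%) and 4 rose (13.3%) in *SMARCA1* knockdown, of which the *SMARCA1* falls were at the share of all genes and the rises below it. *RBMX* and *SYNCRIP*, which are relatives of the hnRNP proteins, fell in *SMARCA4* knockdown (-0.86, edgeR adjusted p = 8.98e-05, and -0.79, edgeR adjusted p = 1.38e-04), where *RBM10* and *RBM5* rose (0.36, edgeR adjusted p = 0.0165, and 0.31, edgeR adjusted p = 0.0148). *KHDRBS3* and *PTBP2* fell in *SMARCA1* knockdown (-0.97, edgeR adjusted p = 4.44e-04, and -0.96, edgeR adjusted p = 8.61e-04), where *RALY* and *EWSR1* rose (0.44, edgeR adjusted p = 0.0156, and 0.37, edgeR adjusted p = 0.00879).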

How the data were processed

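VCaP RNA (10 libraries) was sequenced from polyadenylated, strand-specific paired-end libraries. The authors aligned reads to GRCh38 with HISAT2 2.1.0 and counted them per gene with featureCounts 1.5.2 on GENCODE (versions from the submitters' processing notes). The deposited values are raw counts per gene, not normalized. Strand and multi-mapping settings are not given in the sources used here.

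Genes were filtered with filterByExpr (minimum count 10, minimum total 15), leaving 16899, normalized by TMM and fitted as 5 groups with edgeR 4.0.16 (glmQLFit, glmQLFTest, R 4.3.3). A knockdown is the mean of its 2 siRNA groups. P-values were adjusted by Benjamini-Hochberg over all genes, and genes below 0.05 were called. The standard error is |log2 fold change| over the square root of F. CPM is TMM-scaled. The model was tested on simulated data for fold size, sign and few false calls. That criterion was set after its first output was seen and asks for no minimum share of changed genes called.

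Named genes are the 3 largest called changes per family, comparison and direction (2 for partner lists) at a mean of at least 1 CPM, and the Sm and LSM ring genes. Changes against control also had to be called with each siRNA alone, which the direct comparison did not ask. Other names complete the families and were chosen after their values were seen, as were the promoter motifs. The members and lists were chosen with earlier results of these data known. Alternatives were DESeq2 1.42.0, other scalings and filters, a replicate block, single libraries left out, each knockdown alone and each siRNA alone. Replicates differed by more than sampling noise (chi-square per gene 3.57 to 54.5).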

Additional observations from a re-analysis of the deposited data

Results flagged for a closer look

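*HNRNPAB* had 1 library far from the other 3 of *SMARCA1* knockdown, siRNA A replicate 1, at 256 CPM, whose gap to the next library was 0.857 of the whole range, over the critical value of 0.829 for 4 samples. It was the only one among 70 such groups of 4 examined (genes and summed levels), and chance flags about 1 in 20. *LSM3*, *SNRPD3* and *SRSF8* differed between the 2 siRNAs of *SMARCA4* by an edgeR test of the difference itself. *LSM3* was higher with siRNA B than with siRNA A by 0.54 on the log2 scale (edgeR adjusted p = 0.0340), *SNRPD3* differed by -0.58 (edgeR adjusted p = 0.0408) and *SRSF8* by -0.48 (edgeR adjusted p = 0.0495). *LSM6* was called in opposite directions in the 2 knockdowns, and its direct difference, *SMARCA4* minus *SMARCA1* knockdown, was -0.78 on the log2 scale (edgeR adjusted p = 3.02e-04).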

How the results depend on the processing

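With DESeq2, *SMARCA4* knockdown had 30 lower and 2 higher genes, *SMARCA1* knockdown 17 and 4, and the direct comparison 26 and 3. Genes higher in *SMARCA4* knockdown, 2 in the report, numbered 1 with upper quartile scaling, 1 without a filter, 0 with siRNA A alone and 1 with siRNA B alone. Genes lower in *SMARCA1* knockdown, 17 in the report, numbered 9 with siRNA A alone, and those higher, 5 in the report, numbered 3 without a filter and 3 with siRNA A alone. Genes called between the *SMARCA4* siRNAs, 3 in the report, numbered 7 with DESeq2 and 5 without a filter, and those between the *SMARCA1* siRNAs numbered 2 without a filter. With single libraries left out, *SMARCA4* knockdown had 18 to 36 lower and 0 to 3 higher genes, *SMARCA1* knockdown 5 to 19 and 0 to 10, and the direct comparison 16 to 28 and 2 to 6. Between siRNAs there were then 0 to 10 for *SMARCA4* and 0 to 9 for *SMARCA1*. The HNRNP median log2 fold change in *SMARCA1* knockdown ranged from -0.13 to -0.017, the latter without control replicate 1, and that of LSM genes from -0.10 to 0.0064 in *SMARCA4* and from -0.035 to 0.19 in *SMARCA1* knockdown. A lone library left in a condition is assumed to vary like the other conditions, and the causes of these shifts were not tested. For named genes, 1310 alternatives left the call as it was, 103 lost it and 6 gained it. Replicate numbers were not taken to pair the libraries (correlation of deviations -0.10 to 0.36, over 0.1 in 3 of 10 pairs of conditions, which are those among *SMARCA1* siRNA A and both *SMARCA4* siRNAs), and with the replicate number as a block the counts were 30 and 2, 17 and 5, and 26 and 4. With 2 control libraries, each control weighs on every comparison with them.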
